A study of Mus musculus with 24 samples.

Results

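The MYC and MAX network was followed through 8 of its genes, Myc, Mycn, Max, Mxd1, Mxd3, Mxd4, Mxi1 and Mnt, in mouse CD4+ T cells. Every probe that carries the symbol of a member was taken, which gave 11 of the 25697 probes for 8 of the 17871 gene symbols of the array. MYC and MYCN are transcription factors that bind DNA only when paired with MAX, mostly at the E-box CACGTG, and raise the expression of genes for ribosome production, nucleotide synthesis and glycolysis. The MXD proteins, MXI1 and MNT also pair with MAX, bind the same sites and bring in SIN3 and histone deacetylases, so that they oppose MYC. In T cells MYC is known as an early product of antigen receptor signalling that drives growth and the change of metabolism before division, while several MXD genes are known from cells that leave the cycle.

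The 24 arrays came from 4 cell states and 2 genotypes, with 3 arrays in each group, labelled A, B and C. BAF180, encoded by Pbrm1, is a subunit of the PBAF form of the SWI/SNF chromatin remodelling complex, and the deficient cells carried a conditional Pbrm1 allele whose exon 11 was deleted by a CD4-Cre transgene late in thymic development. The cells were isolated at 95% purity as CD4+CD62L+ cells from spleens and lymph nodes of mice aged 4 to 6 weeks, called Balb/c in the labels and of a mixed background in the methods. Resting Naive cells were used as isolated, and stimulated Naive cells had spent 24 h on plates coated with anti-CD3 (1 ug/ml) and anti-CD28 (2 ug/ml). Resting Th2 cells had been cultured on such plates with IL-4 (10 ng/ml), anti-IFN-gamma (10 ug/ml) and IL-2 (100 U/ml), and stimulated Th2 cells then received PMA (50 ng/ml) and ionomycin (500 ng/ml) for 1.5 h. The responses of Naive and Th2 cells therefore differ in agents and duration as well as in cell type, and these cannot be told apart. A level below is a background-corrected, quantile-normalized log2 intensity, and a probe was detected on an array when its detection p was at most 0.02. A difference was called when its limma p adjusted by the Benjamini-Hochberg method over 14246 probes was below 0.05. P-values measure only the spread between the arrays of a group, which may in part be technical.

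Pbrm1 checked the genotype labels: its brightest probe lay between 8.14 and 9.06 on the 12 WT arrays and between 6.36 and 7.88 on the 12 BAF180-deficient arrays, without overlap, although the position of this probe relative to the deleted exon was not determined. The 6 T cell markers summed to 5282 to 9760 on the linear scale on every array. The 6 Th2 markers summed to 19014 to 21341 in stimulated Th2 cells and to 409 to 583 in resting Naive cells. Their sums in resting Th2 (1344 to 2588) and stimulated Naive cells (952 to 2983) overlapped, so they did not separate these states. The resting Naive arrays stood apart from the other states. Of the 5 myeloid markers 4 were measured, and their sum was 931 to 3508 in resting Naive cells and 82.0 to 113 in the other states, where Lyz2 was not detected on any array. The 5 measured activation markers were split. Cd69, Egr1 and Fos were called lower in stimulated than in resting Naive cells of both genotypes (differences of -1.43, -1.01 and -5.75 in WT cells), the opposite of what the label resting implies, while Il2ra and Egr2 were called higher (3.04 and 2.23), as the label implies. Their linear sum was 7044 to 11594 in resting Naive cells and 3109 to 4866 in the stimulated states. Naive T cell markers (5 measured) summed to 3825 to 4658 there and to 398 to 2890 elsewhere, and the 5 B cell markers to 385 to 1063 against 100.0 to 546. The 95th percentile of the deposited intensities was also lowest there, at 199 to 358 against 340 to 1012 in the other states. The part of these differences in the comparisons with resting Naive cells was not tested, and in bulk RNA fewer cells of a type and less RNA per cell cannot be told apart.

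Of the 8 members, 6 were detected on at least 1 array. Mycn, the paralogue of Myc used mainly in embryonic and neural cells, stayed between 4.12 and 4.29 and was detected on none of the 24 arrays. Mxd1, an antagonist known from differentiating blood cells, stayed between 4.16 and 4.50 and was likewise not detected, so that no difference of either gene was measurable. Mnt, the broadly expressed antagonist, has 2 probes, each detected on 1 array, and its levels between 4.13 and 4.65 gave no called difference in any comparison. The remaining members, Myc, Max, Mxd3, Mxd4 and Mxi1, carried the changes described below, and their levels on each array are plotted by state and genotype.

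**Figure D1:**
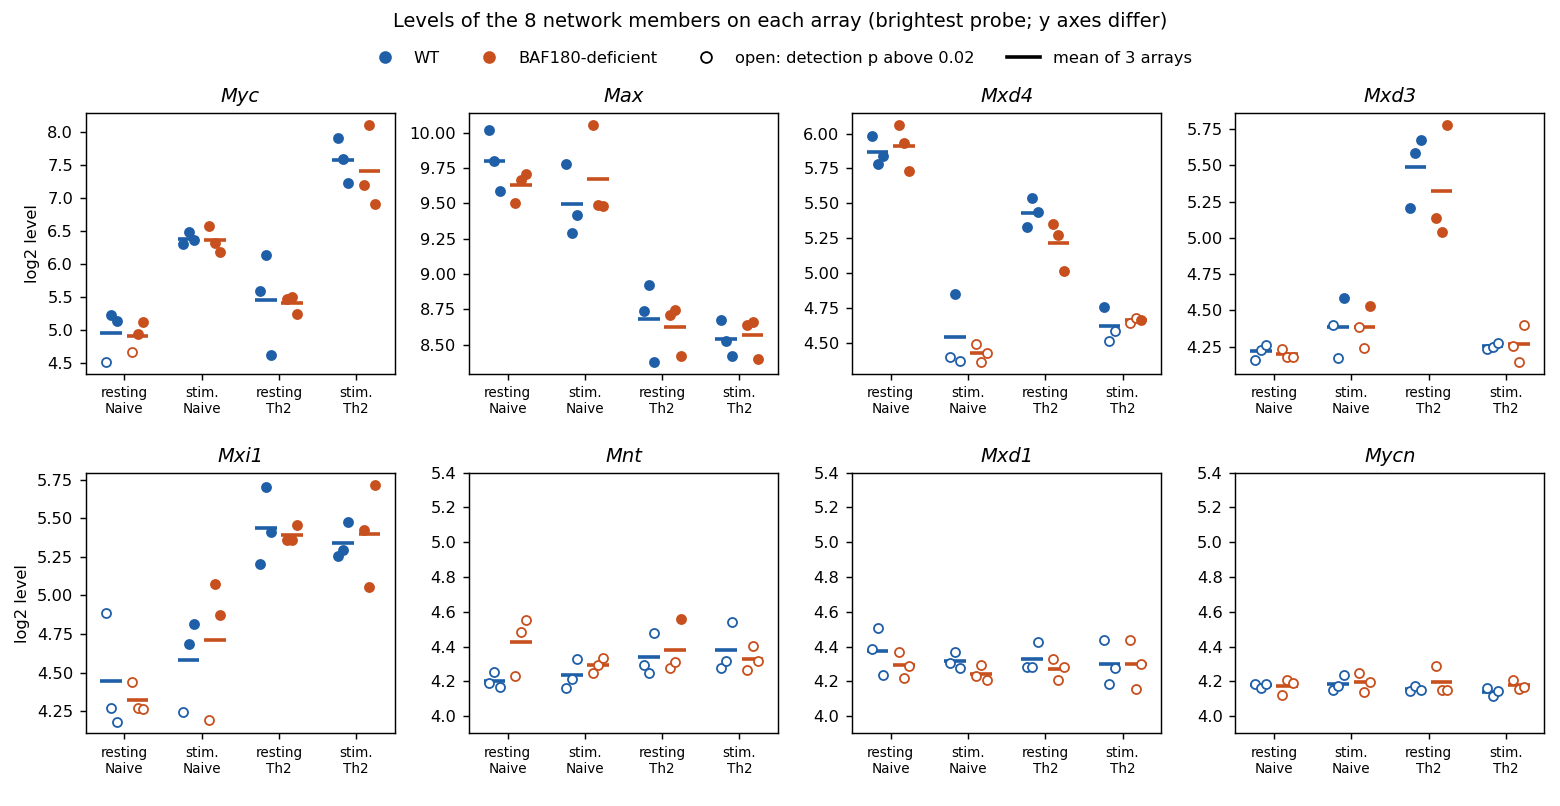
Log2 level of each member on the 24 arrays, by cell state and genotype (brightest probe of each gene; each panel has its own y axis; bars are means of 3 arrays; open points were not detected). Myc was highest in stimulated Th2 cells (6.91 to 8.11), Mxd4 in resting Naive cells (5.73 to 6.06) and Mxd3 in resting Th2 cells (5.04 to 5.78), while Mnt, Mxd1 and Mycn reached at most 4.56.

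Myc, the activator of the network, rose on stimulation of both cell types and in both genotypes. Its informative probe lies within the transcript, starting at base 1189 of the matched RefSeq mRNA, and is shown because all values of Myc rest on it; the second Myc probe was not detected on any array.
Myc probe: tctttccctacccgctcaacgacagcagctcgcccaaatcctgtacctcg
In WT Naive cells the level of Myc was 4.52, 5.22 and 5.13 at rest (arrays A, B and C, with A not detected) and 6.31, 6.48 and 6.36 after 24 h of stimulation. All stimulated arrays lay above all resting arrays. Such a lack of overlap was common, as 34.9% to 52.8% of all probes showed it in the comparisons of states here and below. The difference of 1.42 (SE 0.31, adjusted p = 0.000798) is a 2.68-fold rise. In WT Th2 cells the level was 5.59, 6.14 and 4.62 at rest and 7.91, 7.60 and 7.23 after 1.5 h of stimulation, a 4.37-fold rise (difference 2.13, SE 0.31, adjusted p = 2.33e-05). The groups did not overlap, and resting Th2 array C was the lowest of its group. The rises stood also in the deposited intensities, where Myc read 99.7 to 125.8 against 46.3 to 54.9 in Naive cells and 186.0 to 318.0 against 47.8 to 88.9 in Th2 cells. Both calls were kept in each of 15 alternative settings, with the Naive difference between 0.84, at a larger offset of 50, and 1.56. The rise in Th2 cells was 0.70 larger than that in Naive cells, a gap that did not pass the test (95% interval of Naive minus Th2 -1.62 to 0.21, adjusted p = 0.272).

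Across the WT states Myc ordered from stimulated Th2 cells (mean 7.58) through stimulated Naive cells (6.38) and resting Th2 cells (5.45) to resting Naive cells (4.96). The upper step of 1.20 was called (adjusted p = 0.00828). The middle step of 0.93 was called as well (adjusted p = 0.0346) but was lost in 9 of 15 settings, among them the removal of any stimulated Naive array, of resting Th2 array A or of resting Th2 array C, without which it fell to 0.52 in size (adjusted p = 0.254). The lowest step of 0.49 was not called (adjusted p = 0.237), since resting Th2 array C lay within the range of the resting Naive arrays. Without that array resting Th2 cells stood 0.91 above resting Naive cells (adjusted p = 0.0226), so this single array decided the call. Between stimulated Th2 and resting Naive cells, the ends of the order, the difference was 2.62, or 6.15-fold (adjusted p = 5.57e-07).

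Mxd4, an antagonist of MYC known from resting and differentiating cells, moved the opposite way to Myc on stimulation. Its probe starts at base 238 of the matched mRNA and is shown as the sole probe behind its values.
Mxd4 probe: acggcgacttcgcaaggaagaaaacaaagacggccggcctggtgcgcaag
In WT Naive cells Mxd4 was at 5.98, 5.78 and 5.84 at rest and at 4.40, 4.85 and 4.37 after stimulation. The groups did not overlap, and after stimulation the probe was detected only on array B. The fall of 1.33 (difference -1.33, SE 0.13, adjusted p = 9.74e-08) corresponds to 2.51-fold. In WT Th2 cells it was at 5.33, 5.54 and 5.44 at rest and at 4.76, 4.51 and 4.59 after 1.5 h, a difference of -0.81 (SE 0.13, adjusted p = 9.34e-05). Here too no stimulated array reached the resting ones, and only array A was still detected. The falls were seen in the deposited intensities, with 43.3 to 50.5 against 57.0 to 70.5 in Naive cells and 47.5 to 55.6 against 62.9 to 77.9 in Th2 cells. Since these intensities are close to background, the size depended on the background step: without background correction the differences were -0.82 and -0.47, and with an offset of 50 they were -0.69 and -0.40, with both calls kept. At rest Th2 cells had less Mxd4 than Naive cells (difference -0.44, adjusted p = 0.0156). That call was lost under Z-score normalization (-0.08, adjusted p = 0.621), with only the groups compared in the fit (adjusted p = 0.0504), without resting Naive array A (adjusted p = 0.063) and without resting Th2 array A (adjusted p = 0.0657), and the deposited intensities of these groups overlapped.

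Mxd3, an antagonist that is known, unlike its relatives, from proliferating cells, was detected chiefly in resting Th2 cells. Its probe starts at base 613 of the matched mRNA and is shown for the same reason.
Mxd3 probe: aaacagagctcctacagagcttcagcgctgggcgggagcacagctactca
The level of Mxd3 was 5.21, 5.58 and 5.67 in resting WT Th2 cells and 4.23, 4.25 and 4.28 after PMA and ionomycin. Every stimulated array was below every resting one, and none of the 3 was detected. The fall was at least 1.77-fold, taking the lowest signal of a detected probe as the bound (fitted difference -1.24, SE 0.16, adjusted p = 7.43e-06). In resting Naive cells Mxd3 read 4.16, 4.23 and 4.27, again without detection. Resting Th2 cells were therefore at least 1.55-fold higher than resting Naive cells (fitted difference 1.27, adjusted p = 4.34e-06). Stimulation of Naive cells left Mxd3 at 4.40, 4.17 and 4.59, which overlapped the resting arrays, and the difference of 0.17 was not called (95% interval -0.17 to 0.51, adjusted p = 0.439). The 2 responses differed by 1.41 (SE 0.23, 95% interval 0.92 to 1.89, adjusted p = 0.00012), and Mxd3 was the only member whose difference between responses was called. With an offset of 50 this difference was 0.64 and without background correction 0.92, both called. Mxd4 came close to the threshold in the same test, with -0.52 (adjusted p = 0.0513), and passed it without stimulated Naive array B (-0.67, adjusted p = 0.00843).

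Mxi1, also called Mxd2, was higher in Th2 than in Naive cells whether or not they had been stimulated. It read 4.89, 4.27 and 4.18 in resting Naive, 4.24, 4.69 and 4.82 in stimulated Naive, 5.20, 5.70 and 5.41 in resting Th2 and 5.25, 5.29 and 5.48 in stimulated Th2 cells of WT mice. All 6 Th2 arrays lay above all 6 Naive arrays, and no resting Naive array was detected. Resting Th2 cells were at least 1.49-fold above resting Naive cells (fitted difference 0.99, SE 0.22, adjusted p = 0.0016). Between the stimulated states the difference was 0.76 (adjusted p = 0.0182), a call that was lost without stimulated Naive array A (adjusted p = 0.113) or stimulated Th2 array C (adjusted p = 0.0684). In the deposited intensities Mxi1 separated the resting states, with 65.5 to 72.5 in Th2 against 36.4 to 48.7 in Naive cells, but overlapped between the stimulated states, with 54.0 to 99.7 against 39.2 to 55.4. Stimulation itself gave no called difference in Naive (0.14, adjusted p = 0.67) or Th2 cells (-0.10, adjusted p = 0.843).

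Max, the partner that the other members share, has 2 probes that did not agree. The brighter of them was detected on all 24 arrays. It read 10.02, 9.80 and 9.59 in resting Naive, 9.78, 9.29 and 9.42 in stimulated Naive, 8.74, 8.92 and 8.38 in resting Th2 and 8.67, 8.52 and 8.42 in stimulated Th2 cells of WT mice. Each Naive array exceeded each Th2 array. Resting Th2 cells were 2.18-fold lower than resting Naive cells (difference -1.12, SE 0.18, adjusted p = 4.91e-05), and stimulated Th2 cells 1.94-fold lower than stimulated Naive cells (-0.96, adjusted p = 0.000504). In the deposited intensities, before normalization, the groups overlapped: 315.1 to 603.6 in resting Th2 against 384.0 to 541.9 in resting Naive cells, and 299.9 to 725.7 against 527.4 to 1061.6 in the stimulated states. The difference in Max is thus one relative to the other genes of each array. Stimulation gave no called difference of this probe in Naive (-0.30, adjusted p = 0.18) or Th2 cells (-0.14, adjusted p = 0.672).

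The second Max probe spans the start of the coding sequence, beginning at base 142 of the matched mRNA, and is shown with the start codon in capitals because it followed another course than the brighter probe.
Max second probe: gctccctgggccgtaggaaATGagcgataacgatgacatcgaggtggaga
It read 4.29, 4.49 and 4.48 in resting and 5.21, 5.44 and 5.14 in stimulated WT Naive cells. The groups did not overlap, and only the stimulated arrays were detected. The rise was at least 1.33-fold (fitted difference 0.84, SE 0.18, adjusted p = 0.000822). In Th2 cells it moved from 4.79, 4.33 and 4.39 to 5.22, 5.16 and 4.74, a difference of 0.54 that was called (adjusted p = 0.0338) although resting array A lay above stimulated array C and the deposited intensities overlapped as well. The deposited annotation gives the second probe type I and the brighter one type S. Whether both read the same transcripts was not examined. Averaging both probes reduced the difference of Max between resting Th2 and resting Naive cells to -0.52. That between the stimulated states became -0.59, and both differences were still called.

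Counted by the brightest probe of each of the 6 members tested, 1 rose (Myc) and 1 fell (Mxd4) on stimulation of WT Naive cells, where 43.6% of all probes tested were called in either direction. In WT Th2 cells 1 rose (Myc) and 2 fell (Mxd3 and Mxd4), beside 27.3% of all probes. Between resting Th2 and resting Naive cells 2 were higher in Th2 cells (Mxd3 and Mxi1) and 2 lower (Max and Mxd4), beside 34.4%. Between the stimulated states Myc and Mxi1 were higher and Max lower in Th2 cells, beside 20.1%. Resting Th2 against stimulated Naive cells gave 5 members called, 3 higher (Mxd3, Mxd4 and Mxi1) and 2 lower (Myc and Max), beside 22.3%, and stimulated Th2 against resting Naive cells gave 4, with Myc and Mxi1 higher and Max and Mxd4 lower, beside 48.5%. The difference of the Naive and Th2 responses was called for 1 of 6 members (Mxd3) and for 25% of all probes. Under the stricter criteria that the study's methods set, every difference of Mxi1 and every WT difference of Mxd4 lost its call, as did those of Max except between the stimulated states and that of Mxd3 between the responses, while Myc kept all of its calls. These comparisons share arrays, so that their counts are not independent of each other. The shares of members called lay near those of all probes in several of them, and the counts describe the members without setting them apart.

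**Figure D2:**
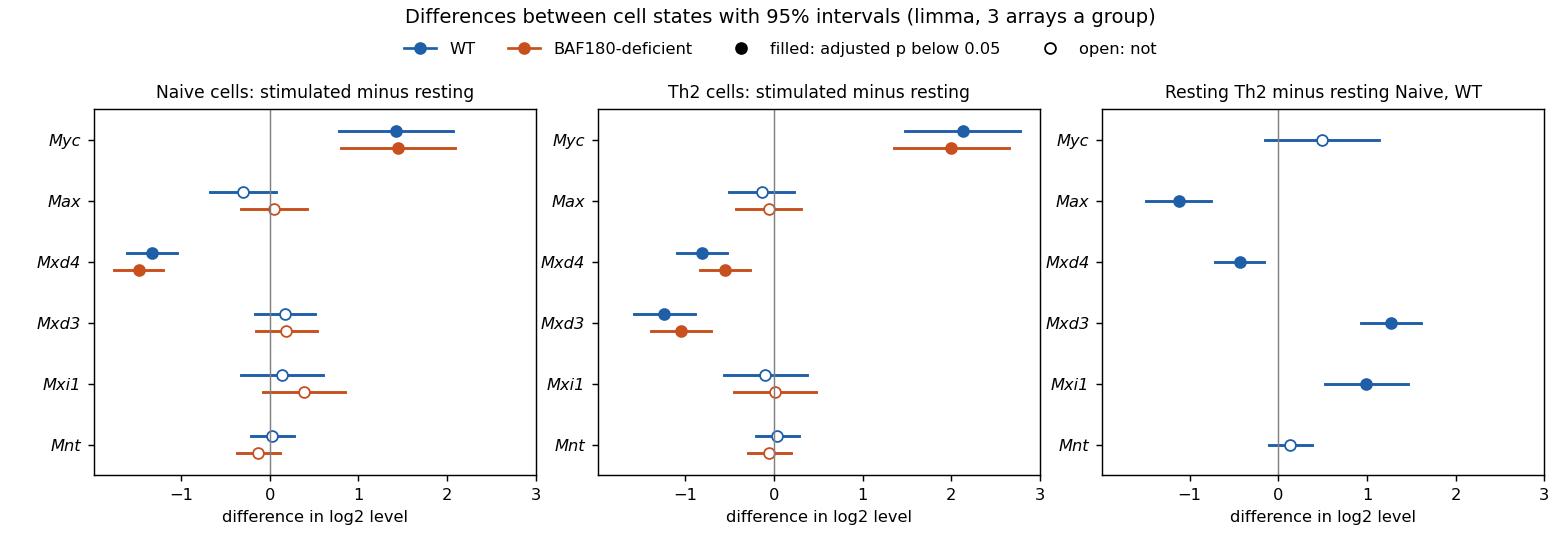
Differences in log2 level (x axis) of the 6 tested members with 95% intervals, for stimulation of Naive cells, stimulation of Th2 cells and resting Th2 against resting Naive cells; filled points passed an adjusted p of 0.05 and open points did not. Myc rose by 1.42 and 2.13 and Mxd4 changed by -1.33 and -0.81 in the WT responses, while Mxd3 changed in Th2 cells alone among them (-1.24).

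BAF180-deficient cells showed the same members called on stimulation. Myc was at 4.67, 4.94 and 5.12 in resting and at 6.57, 6.31 and 6.19 in stimulated BAF180-deficient Naive cells, a 2.72-fold rise (difference 1.45, adjusted p = 0.000715). In Th2 cells lacking BAF180 it moved from 5.47, 5.50 and 5.24 to 7.19, 8.11 and 6.91, a 4.00-fold rise (difference 2.00, adjusted p = 5.56e-05). In neither cell type did resting and stimulated arrays overlap. Mxd4 went from 6.06, 5.93 and 5.73 to 4.49, 4.37 and 4.43 in Naive cells, at least 2.42-fold lower with no stimulated array detected (fitted difference -1.48, adjusted p = 2.26e-08). In Th2 cells it went from 5.35, 5.28 and 5.02 to 4.64, 4.68 and 4.66, a difference of -0.55 (adjusted p = 0.00385), again with no overlap. Mxd3 went from 5.14, 5.04 and 5.78 in resting to 4.25, 4.15 and 4.40 in stimulated Th2 cells, which was at least 1.57-fold lower (fitted difference -1.05, adjusted p = 5.77e-05). In Naive cells 2 of 6 members were called, beside 41.6% of all probes, and in Th2 cells 3 of 6, beside 25.8%. The second Max probe, which rose in WT Naive cells, gave 0.39 there without BAF180 and was not called (adjusted p = 0.101), and its interaction of genotype and stimulation was -0.46 (SE 0.26, adjusted p = 1).

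The comparison the study was made for, BAF180-deficient against WT cells of the same state, called no member in any state. The study's methods ask for a mean signal above 0, a p under 0.05, an FDR under 0.3 and a Z-ratio, which is the difference over the SD of all differences, past 1.5 in size. With p and FDR taken from limma, and the Z-ratio and mean signal from the log2 levels used here, these criteria called 0 of 6 members in each state. With an offset of 16 every log2 level lies above 0, so the signal criterion removed no probe. Of all probes they called 0.681% in resting Naive, 0.112% in stimulated Naive, 0.0842% in resting Th2 and 0.0913% in stimulated Th2 cells. By its own statistics the study reported many more changed genes, and more in differentiated than in Naive cells, the reverse of these shares. The counts given here are therefore not those of the study. At an unadjusted limma p below 0.05 the count of members was also 0 of 24 tests, beside 2.25% to 6.83% of all probes by state. A count of 0 in so few tests lies near those shares. The lowest adjusted p was 0.803. The genotypes overlapped for each of the 6 members in each state, whereas 6.46% to 10.1% of all probes did not overlap. Myc differed by -0.05 in resting Naive, -0.03 in stimulated Naive, -0.05 in resting Th2 and -0.17 in stimulated Th2 cells. The 95% interval in stimulated Th2 cells reached from -0.82 to 0.47, so that differences of Myc within these bounds are not excluded by 3 arrays a group. For Max, Mxd3, Mxd4, Mxi1 and Mnt the differences lay between -0.22 (Mxd4 in resting Th2 cells, 95% interval -0.50 to 0.06) and 0.22 (Mnt in resting Naive cells, 95% interval -0.02 to 0.46). The second Max probe was the exception among the 8 kept probes. In stimulated Naive cells it read 4.41, 4.99 and 5.05 without BAF180 against 5.21, 5.44 and 5.14 in WT cells, without overlap (difference -0.45, unadjusted p = 0.0248, adjusted p = 1), and it did not meet the criteria.

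The effect of stimulation on the members was not found to depend on genotype. The interaction of genotype and stimulation was called for 0 of 6 members in Naive cells, beside 0.00702% of all probes, and for 0 of 6 in Th2 cells, beside 0% of all probes. At an unadjusted limma p below 0.05 the count was 0 of 12 tests, beside 2.31% of all probes in Naive and 1.8% in Th2 cells. For Myc the interaction was 0.02 in Naive (95% interval -0.89 to 0.94) and -0.13 in Th2 cells (-1.04 to 0.79). None of 106 alternative fits of the genotype comparisons and these interactions called a member.

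**Figure D3:**
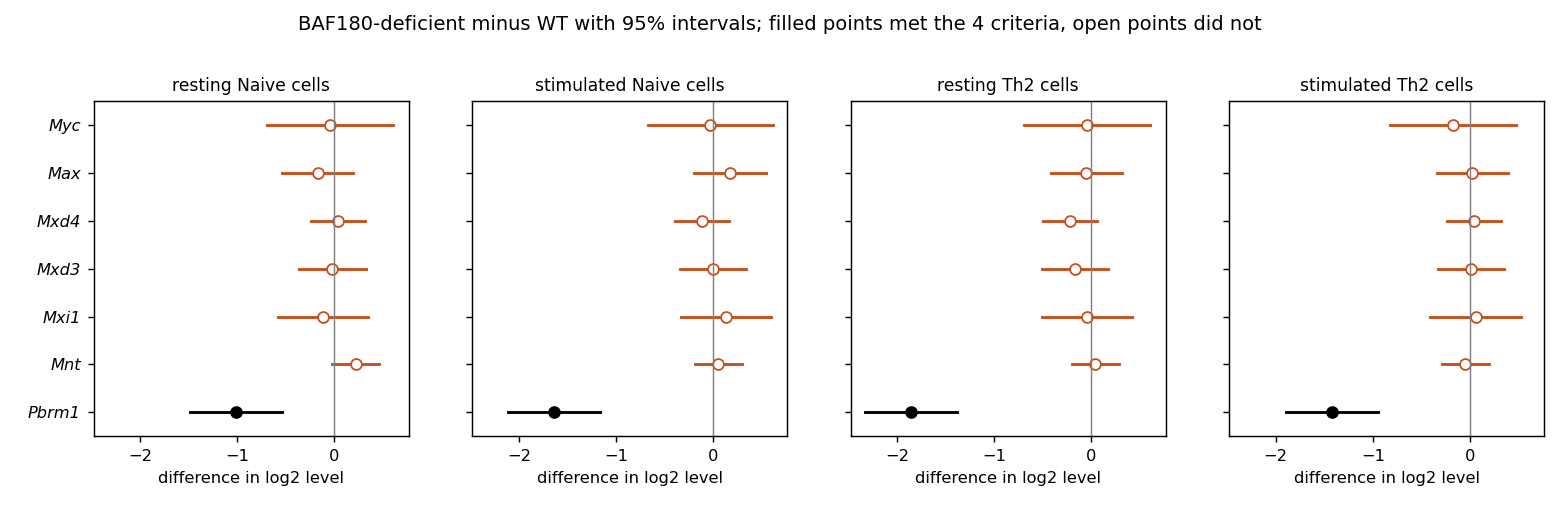
BAF180-deficient minus WT difference in log2 level (x axis) with 95% intervals in each state, for the 6 tested members and Pbrm1; filled points met the criteria. Only Pbrm1 did so, with -1.01 in resting Naive and -1.86 in resting Th2 cells, and every member interval includes 0.

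Most of the genes that MYC is known to activate rose in the stimulated cells. Of 36 such genes, chosen from general knowledge but with earlier results of these data known, 32 had a detected probe. Each was counted by its brightest probe, whereas the shares beside the counts cover every tested probe. In stimulated WT Naive cells 29 of the 32 rose and 0 fell, beside 23.6% of all probes called higher, with a median difference of 1.64 against -0.01 for all genes. Hk2, a hexokinase of glycolysis, rose by 3.44 (adjusted p = 1.36e-08), Srm, the spermidine synthase, by 3.11 (adjusted p = 2.21e-09) and the mitochondrial chaperonin Hspd1 by 3.09 (adjusted p = 5.62e-07). Nucleolin (Ncl) rose by 2.18, lactate dehydrogenase (Ldha) by 1.59, the pyrimidine synthesis enzyme Cad by 1.58, ornithine decarboxylase (Odc1) by 1.34 and the transferrin receptor (Tfrc) by 1.31, all with adjusted p of at most 0.00582.

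In stimulated WT Th2 cells 22 of the 32 targets rose and 1 fell, beside 13% of all probes called higher, with a median of 1.01. Srm rose by 2.15 (adjusted p = 8.4e-07), the folate enzyme Shmt1 by 2.03 (adjusted p = 1.01e-07) and Odc1 by 1.68 (adjusted p = 0.00164). Ncl (0.90), Tfrc (0.77) and Cad (0.61) rose less far, and Ldha fell by 0.44 (adjusted p = 0.045), a call lost without each of 4 of the 6 arrays and under Z-score normalization. The Naive response exceeded the Th2 response for 16 targets, beside 14% of all probes, with Ldha (2.03), Hk2 (1.83) and Impdh2 (1.81) in front, and was smaller for 1, Slc3a2 (-0.68). That count of 16 was 10 without stimulated Naive array B and 10 without stimulated Th2 array B.

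Among the states, resting Th2 cells had 17 of 32 above resting Naive cells and 0 below, beside 18.4% of all probes called higher, and 24 of 32 below stimulated Naive cells, beside 11.5% called lower. Stimulated Th2 cells had 1 above and 5 below stimulated Naive cells, beside 20.1% called in either direction, while Myc was 2.29-fold higher in stimulated Th2 cells. Without BAF180, 30 of the 32 rose in Naive cells (median 1.77), beside 22.3% of all probes called higher, and 19 in Th2 cells (median 0.83), beside 12%, while 0 fell. Between the genotypes 0 of 32 targets met the criteria in each state, beside at most 0.681% of all probes. At an unadjusted limma p below 0.05, 1 was higher and 3 lower in resting Naive cells, beside 6.83% of all probes. The counts were 1 and 0 in stimulated Naive (beside 2.25%), 2 and 0 in resting Th2 (3.43%) and 1 and 1 in stimulated Th2 cells (2.79%).

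Genes that MYC is known to repress did not move together. Of 6, in WT Naive cells 2 fell and 0 rose, beside 43.6% of all probes called in either direction, and in WT Th2 cells 1 fell and 2 rose, beside 27.3%. Cdkn1b, an inhibitor of the cyclin-dependent kinases, fell by 3.05 in WT Naive cells (adjusted p = 9.08e-10) and fell by 2.08 in WT Th2 cells (adjusted p = 4.28e-07). The growth arrest gene Gadd45a fell by 1.46 in WT Naive cells (adjusted p = 0.000495). In WT Th2 cells the stress-induced gene Ndrg1 rose by 1.65 (adjusted p = 6.63e-05) and Cdkn2b, another inhibitor of that kind, by 0.76 (adjusted p = 0.00164). Without BAF180 the counts were 2 lower and 1 higher in Naive cells, where Ndrg2 rose by 0.50 (adjusted p = 0.0264), beside 41.6%, and 1 lower and 2 higher in Th2 cells, beside 25.8%.

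Among 7 coactivators of MYC, 4 rose and 1 fell in WT Naive cells, beside 43.6% of all probes called in either direction, and 3 rose in WT Th2 cells, beside 27.3%. The chromatin ATPases Ruvbl2 and Ruvbl1 rose by 2.66 and 1.75 in WT Naive cells and by 0.86 and 0.88 in WT Th2 cells, and Wdr5, a subunit of histone methyltransferases, by 1.18 and 0.62. Ep400 fell by 0.47 in WT Naive cells (adjusted p = 0.00923). Without BAF180 4 rose and 1 fell in Naive cells, beside 41.6%, and 2 rose in Th2 cells, beside 25.8%, with Wdr5 at 0.41 there and not called (adjusted p = 0.13).

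The corepressors that MXD proteins and MNT recruit were split. Of the 5 measured, 2 rose (Hdac2 by 1.46 and Sap30 by 0.96) and 2 fell (Ncor1 by 1.35 and Sin3a by 0.83) in WT Naive cells, beside 43.6% of all probes. In WT Th2 cells, beside 27.3%, Hdac2 rose by 0.72, while Ncor1, Sin3a and Hdac1 fell by 0.90, 0.81 and 0.76. Sin3a, the scaffold to which MXD proteins bind, was called lower after stimulation in both WT cell types (adjusted p = 0.0182 and 0.0314). Without BAF180 its differences of -0.64 in Naive and -0.63 in Th2 cells were not called (adjusted p = 0.0678 and 0.101). The counts without BAF180 were 2 higher and 1 lower (Ncor1) in Naive cells, beside 41.6%, and 1 higher (Hdac2) and 0 lower in Th2 cells, beside 25.8%.

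Of 8 measured genes for turnover or binding of MYC, 3 rose and 4 fell in WT Naive cells, beside 43.6% of all probes called in either direction. Mycbp rose by 1.93, the ubiquitin ligase subunits Fbxw7 and Skp2 by 0.70 and 0.69, and Mycbp2, Usp28 and Bin1 fell by 1.79, 1.68 and 1.63. In WT Th2 cells, beside 27.3%, Zbtb17, through which MYC represses genes, rose by 0.86, Fbxw7 rose by 0.67 and the deubiquitinase Usp28 fell by 0.59. Without BAF180, 1 rose (Mycbp) and 4 fell in Naive cells, beside 41.6%, and 0 of 8 were called in Th2 cells, beside 25.8%. There 2 of 8 had an unadjusted limma p below 0.05, beside 35% of all probes. Zbtb17 gave 0.73, Fbxw7 0.54 and Usp28 -0.19 in these Th2 cells (adjusted p = 0.0791, 0.112 and 0.451).

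Of 5 further factors of the MAX and MLX networks 3 were measured. Mycl, the third member of the MYC family, read 6.72, 6.52 and 6.54 in resting WT Naive cells and was detected on no stimulated Naive array, at least 3.83-fold lower (adjusted p = 1.56e-08). In stimulated WT Naive cells Mlx, the partner of the glucose-responsive factors, rose by 0.50 (adjusted p = 0.0202). There 2 of 3 were called, beside 43.6% of all probes. In WT Th2 cells 0 of 3 were called, beside 27.3%, and 1 had an unadjusted limma p below 0.05, beside 35.7%. Where a call in these lists stood in one genotype and not in the other, the genotypes were not shown to differ. The limma interaction of genotype and stimulation was called for 0 of the 61 genes of all 6 lists in Naive and in Th2 cells. At an unadjusted p below 0.05 the counts were 0 and 1, beside 2.31% and 1.8% of all probes. None of these lists held a gene that met the genotype criteria in any state.

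**Figure D4:**
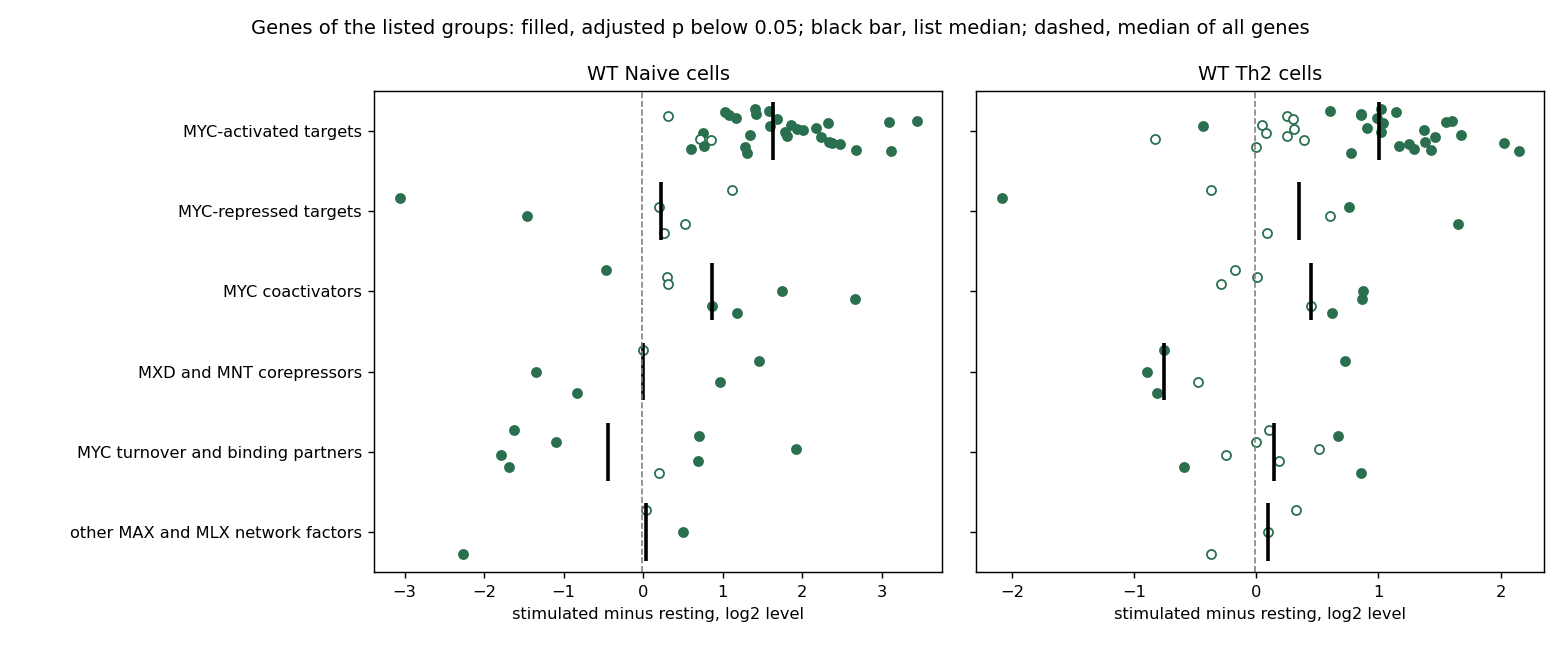
Stimulated minus resting difference in log2 level (x axis) of each measured gene in the 6 lists around the network, in WT Naive and WT Th2 cells (the panels differ in their x range); filled points passed an adjusted p of 0.05, the black bar is the list median and the dashed line the median of all genes. The median of the MYC-activated targets was 1.64 in Naive and 1.01 in Th2 cells, against -0.01 for all genes in both.

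Across the 24 arrays the level of Myc followed a few genes closely. The 5 most alike by Pearson correlation were Plscr1 (r = 0.947), Alg9 (0.940), Stx6 (0.933), Nfe2l1 (0.932) and Il3 (0.932). These arrays fall into 8 groups that share cell state, and within the groups the correlations were 0.544, 0.374, 0.064, 0.481 and 0.288. Of the members Mxd4 was the most unlike Myc, with r = -0.779 over the arrays, -0.849 over the 8 group means and 0.088 within groups, so that the relation lay between the states and not among the arrays of a state. The values for the other members were -0.400 for Max, -0.323 for Mxd3, 0.342 for Mxi1 and -0.037 for Mnt. These correlations are descriptions over arrays that are not independent.

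**Figure D5:**
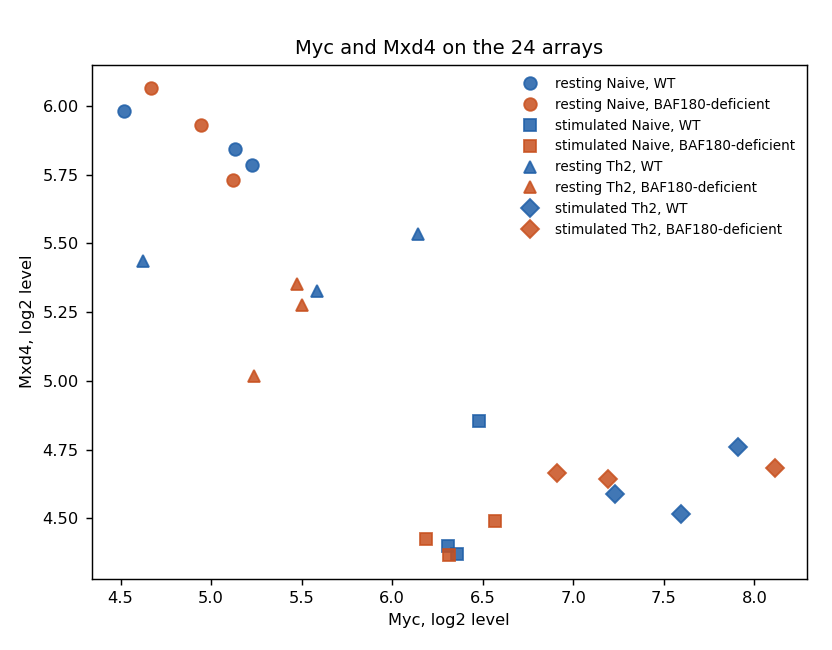
Level of Myc (x axis, log2) against that of Mxd4 (y axis, log2) on the 24 arrays, with symbols for the cell state and colours for the genotype. The resting Naive arrays lie at high Mxd4 (5.73 to 6.06) and low Myc, the stimulated arrays of both cell types at low Mxd4 (4.37 to 4.85) and high Myc, and WT and BAF180-deficient arrays of a state lie together.

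The promoter windows of the members, taken from RefSeq as 250 bases before the start and at most 50 after it, were searched for the E-box CACGTG, which reads the same on both strands. Of the 8 members 7 have a window, and 3 of the 7 hold the motif: Max, Mxd4 and Mnt. It occurs in 7.15% of all such windows (2349 of 32851), in 11.4% of the genes with a detected probe (941 of 8258) and in 27.6% of the MYC-activated targets (8 of 29, namely Apex1, Cdk4, Eif4a1, Eif4e, Hspd1, Impdh2, Ldha and Nme1), while 0 of 5 MYC-repressed targets hold it. A match of letters is no evidence of binding. The windows of Mxd4 and Max, the members with the motif whose levels differed between states, are shown in transcript direction with the motif in capitals (GRCm38.p6). The Mxd4 window lies at chr5:34187711-34187960 on the minus strand and the Max window at chr12:76962239-76962498 on the minus strand.
Mxd4 promoter: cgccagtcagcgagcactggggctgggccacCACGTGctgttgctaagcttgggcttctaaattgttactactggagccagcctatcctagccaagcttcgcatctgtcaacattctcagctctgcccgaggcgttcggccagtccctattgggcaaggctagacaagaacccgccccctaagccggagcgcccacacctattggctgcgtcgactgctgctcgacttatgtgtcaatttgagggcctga
Max promoter: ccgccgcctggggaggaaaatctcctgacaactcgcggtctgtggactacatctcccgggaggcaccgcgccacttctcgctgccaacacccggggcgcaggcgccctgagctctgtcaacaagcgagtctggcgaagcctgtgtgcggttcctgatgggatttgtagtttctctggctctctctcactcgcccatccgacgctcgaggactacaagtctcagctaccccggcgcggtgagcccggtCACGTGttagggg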

How the data were processed

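Total RNA of each sample was labelled as cRNA and hybridized to an Illumina MouseRef-8 v2 BeadChip. The authors deposited, per probe and array, the average intensity from GenomeStudio (1.6.0 in the submitters' processing notes), neither normalized nor background-subtracted, and a detection p-value, also deposited as GenomeStudio gave it. No genome build is named for the genomic positions of the probes, which were not used here. The starting bases within transcripts are those of the deposited annotation.

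Background was corrected from the detection p-values (neqc in limma 3.58.1, R 4.3.3; offset 16), followed by log2 and quantile normalization. Probes detected (p of 0.02 or less) on 1 or more of the 24 arrays were tested, 14246 in all, for 10418 genes. A limma model of 8 group means (lmFit, eBayes; 20.3 degrees of freedom after moderation) covered every array, and p-values were adjusted by Benjamini-Hochberg. Symbols were updated through Entrez IDs (16938), accessions (7420), symbols (465) and synonyms (553), and 321 stayed as given. Mycn and Mxd1 appear in the table as Nmyc1 and Mad, so that 11 member probes were found in place of 9. Each gene was taken by its brightest probe. Where a probe was detected on 3 arrays of a group and on 0 of the other, the fold is a bound ("at least") against the lowest detected signal.

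Between 8047 and 10689 probes were detected per array, and replicate arrays correlated at 0.949 to 0.989. With 3 arrays a group the median SE was 0.193, and that number limits the precision. Groups came from the sample descriptions. The study describes matched mice of both genotypes. Deviations of same-letter WT and BAF180-deficient arrays, pooled over the states, correlated at 0.301 (A), 0.136 (B) and 0.516 (C). By state the values ran from -0.003 to 0.662. Whether the letters mark pairs was not settled, so the main fit was unpaired, with a letter block as an alternative. The calling was tested on simulated data.

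The text names the 8 members, Pbrm1, the 3 genes of each list with the largest called rise and fall in each WT response, always Ncl, Odc1, Cad, Ldha and Tfrc, and the 5 genes most like Myc. Impdh2, Slc3a2, the marker genes and the targets with an E-box were named after their values were seen. The members, lists and tests were chosen with earlier results of these data known. Alternatives changed the background step, filter, normalization, probe, call rule and samples.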

Additional observations from a re-analysis of the deposited data

Results flagged for a closer look

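The responses of WT Naive and Th2 cells to stimulation differed for several genes, by a test of the difference itself in limma. Agents and duration differed between these responses, and their part was not tested. For Mxd3 the Naive response was 1.41 above the Th2 response, since it fell in Th2 cells alone among the WT responses. Of the 32 MYC-activated targets 16 responded more in Naive cells, among those named Ldha (2.03), Hk2 (1.83), Impdh2 (1.81), Hspd1 (1.53), Ncl (1.27), Cad (0.98) and Srm (0.97), and Slc3a2 responded less (-0.68). Each value is a signed Naive difference minus a signed Th2 difference, so a negative one can be a deeper fall in Naive cells. Of the genes MYC is known to repress, it was negative for Gadd45a (-2.06), Ndrg1 (-1.12) and Cdkn1b (-0.97), and Cdkn1b fell further in Naive cells. For Mycl, which fell in Naive cells, the value was also negative (-1.90). Among coactivators it was positive for Ruvbl2 (1.80) and Ruvbl1 (0.87), and among corepressors for Sap30 (1.44). Of the turnover and binding genes Mycbp (1.41) had a positive value. Bin1 (-1.73), Mycbp2 (-1.54) and Usp28 (-1.09) had negative values, and each of these genes fell in Naive cells.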

How the results depend on the processing

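Over 34 alternative settings, 24 of them leaving out 1 array, 236 of 247 counts of members called stayed within 1.5 times the reported count. Of 1467 member differences 1430 kept their side of the threshold, 30 lost and 7 gained a call, and 0 called ones reversed. Among those that kept their side, 85 uncalled ones changed sign. With the other call rule, the criteria of the methods, the count fell from 2 to 1 for stimulation of WT Naive cells, from 4 to 1 for resting Th2 against resting Naive and for stimulated Th2 against resting Naive cells, from 5 to 2 for resting Th2 against stimulated Naive cells and from 1 to 0 for the difference of the responses. That last count was 2 with the mean of all probes, without background correction, without a filter and with an offset of 50, where Mxd4 joined Mxd3.

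Leaving out 1 array gave 1 to 2 members for the difference of the responses and 3 to 5 for resting Th2 against stimulated Naive cells (3 without stimulated Naive array A). Counts of the MYC-activated targets under alternatives were chosen after seeing the data. Leaving out 1 array gave 10 to 14 with a larger response in Naive cells, 0 to 1 with a smaller response and 0 to 1 that fell in Th2 cells, and Z-score normalization gave 0 for both of the last.

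A replicate block was fitted by letter in the genotype comparisons and by letter within each genotype in the others. The counts of members called then equalled those of the unpaired fit in all 15 comparisons. They were, for example, 2 for WT Naive and 3 for WT Th2 stimulation and 0 for genotype. The block changed no call of a member. Under Z-score normalization and the other scalings the median difference of all probes was at most 0.04 in size. These scalings bring the arrays to a common distribution or centre, so a small median followed from them and tests nothing. The array chip is not given in the table and was not used as a block, and normalization within a state applies to the genotype comparisons alone. Probes near background, among them Mxd3, Mxd4, Mxi1 and the second Max probe, limit the size of a fall that can be measured.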
